A study of Mus musculus with 6 samples.

Results

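The genes described here encode the proteins of the cytosolic ribosome in mouse splenic γδ T cells. They were found by symbol in the deposited count table, as Rpl or Rps followed by a digit together with Rplp0, Rplp1, Rplp2 and Rpsa. The S6 kinase genes (Rps6k symbols, 10 rows), pseudogenes named -ps with or without a number (10 rows) and rows at 0 in every column (0 rows) were left out, which gave 89 genes of 19390. Of these, 54 carry large subunit symbols (Rpl) and 35 small subunit symbols (Rps). A list of 77 core ribosomal proteins, 46 of the large and 31 of the small subunit, was matched in full. The other 12 genes are paralogues, retrogene copies and Rps19bp1, which encodes a binding partner of Rps19 that is not a subunit of the ribosome.

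Bulk RNA was sequenced from γδ T cells, a minor T cell lineage named after the γ and δ chains of its receptor, which had been flow-sorted from spleens of mice aged 6 weeks. The 3 libraries titled WT were taken as USF3-f/f mice, which carry floxed Usf3 alleles, and the 3 titled KO as USF3-f/f; CD2-cre mice. Floxed alleles were thus common to both groups, and the CD2-cre transgene, which expresses Cre recombinase from a promoter active in T and B lymphocytes, was carried by the KO-labelled mice only, so the transgene and the deletion cannot be told apart. The titles do not say whether each library is a separate animal, so p-values measure the spread between these libraries.

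Library totals were 34644862 to 35806402 counts, and 12810 genes passed the filter on low counts. Values of single libraries are given throughout in the order of replicates 1, 2 and 3. For Usf3 itself the WT-labelled libraries held 2499, 2527 and 2593 counts and the KO-labelled ones 2532, 2360 and 2348, with an edgeR adjusted p of 0.261. A count over the whole gene does not show whether the floxed exons were lost, so libraries are called by their labels. Summed Cd3d, Cd3e, Cd3g, Cd247 and Cd2 stood at 1345 to 1363 CPM (counts scaled to a common library size) in WT-labelled and 1232 to 1307 in KO-labelled libraries. Of 5 γδ markers on the list 2 had rows (3.76 to 5.41 and 3.89 to 4.30), and the γδ receptor genes were not analysed here. Summed markers of B cells (6 of 6 with rows) were at 6.02 to 6.76 and 5.41 to 7.24, and those of NK cells (2 of 2) at 72.8 to 78.3 and 74.3 to 79.2. Dendritic cell markers (3 of 4) were at 0.678 to 1.38 and 1.45 to 1.92 and platelet markers (3 of 3) at 0.859 to 0.904 and 1.26 to 1.48, without overlap between the labels. Monocyte, neutrophil and erythroid lists each summed to at most 0.544 CPM. The 3 αβ T cell markers with rows, Cd4, Cd8a and Cd8b1, summed to 84.1 to 84.6 CPM in WT-labelled and 104 to 108 in KO-labelled libraries, also without overlap. The part of these markers in the results was not tested. In bulk RNA, fewer cells of a type and less RNA per cell cannot be told apart.

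The ribosome is assembled in the nucleolus from ribosomal RNA and about equal numbers of each ribosomal protein, the small subunit decoding the messenger RNA and the large subunit forming peptide bonds. Ribosomal protein messenger RNAs begin with a terminal oligopyrimidine (TOP) tract, a cytidine followed by a run of pyrimidines, through which mTORC1 and the RNA-binding protein LARP1 control their translation together. T cells raise ribosome production when they are activated and grow, and the transcription factor MYC is a well-known driver of that programme.

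Start regions from RefSeq on the build GRCm38.p6 were matched by symbol for 68 of the 89 genes and 57 of the 77 core genes, with 80 and 67 start entries. Entries on a single chromosome were left out beforehand, so any members there count as unmatched. Some TOP-like starts are shown because this tract is the sequence feature the family is known for. Each window runs 5′ to 3′ from 15 bases before to 15 bases after the annotated start, and capitals mark the letters CTTTC or CTTCC, which may overlap. The windows lie at chr14:18270972-18271001 (minus strand) for Rpl15, chr7:141447636-141447665 (plus) for Rplp2, chr3:90213634-90213663 (minus) for Rps27, chr11:114668565-114668594 (plus) for Rpl38 and chr7:118116133-118116162 (minus) for Rps15a.
Rpl15: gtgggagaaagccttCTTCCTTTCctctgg
Rplp2: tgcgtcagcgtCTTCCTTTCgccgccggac
Rps27: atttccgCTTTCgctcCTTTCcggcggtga
Rpl38: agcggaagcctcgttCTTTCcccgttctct
Rps15a: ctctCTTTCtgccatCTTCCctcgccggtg

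From 20 bases before to 30 bases after the start, CTTTC was present on the given strand in 31.3% of the 67 core start entries and in 6.57% of all 32851 entries of the same length that were used. On either strand, where GAAAG also counts, these shares were 37.3% and 12.5%. CTTCC was present on the given strand in 29.9% and 10.4%, and on either strand in 43.3% and 21.7%. Over the whole 300 bases, the ETS-factor core CGGAAG was found on either strand in 62.7% of core entries and 16.9% of all entries. A match to letters is a description and does not show binding or a TOP tract in these cells.

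The letters CACGTG form the E-box that proteins of the USF family are known to bind, so their place in these genes is also given. This palindrome, the same on both strands, was present in 8 of the 67 core entries (11.9%) and in 7.15% of all entries over 300 bases. The 8 entries belong to 6 genes, Rpl13a, Rpl14, Rpl19, Rpl23, Rpl34 and Rps19. Windows for 3 of these, with the E-box in capitals, lie at chr11:97782425-97782454 (minus) for Rpl23, where the E-box spans the start, at chr11:98026679-98026708 (plus) for Rpl19 and at chr3:130730536-130730565 (minus) for Rpl34.
Rpl23: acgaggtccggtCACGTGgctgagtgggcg
Rpl19: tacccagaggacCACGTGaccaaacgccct
Rpl34: cacctaacttctCACGTGacgttcctaccg

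The 89 genes took 6.62%, 6.57% and 6.69% of all counts in the WT-labelled libraries and 6.83%, 6.71% and 7.03% in the KO-labelled ones (95% Wilson intervals of at most 0.00851 percentage points on either side, which cover counting error only). Every KO-labelled library was thus above every WT-labelled one, by little for KO replicate 2 and by most for KO replicate 3. The means were 6.62% ± 0.0605 and 6.86% ± 0.163 (SD, n = 3 each), a difference of 0.233 percentage points. Without KO replicate 3 the difference was 0.145 points. No test was made on this sum, since the members were chosen with results known. Mitochondrially encoded genes took 1.38% to 1.48% in WT-labelled and 1.41% to 1.61% in KO-labelled libraries, and KO replicate 3 had the lowest of the KO values.

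Between genes, levels are compared as deposited FPKM, which divide by gene length. Core members of WT-labelled libraries had a median of 887 FPKM, and 62 of 77 lay within 2-fold of it. The range ran from 88.8 for Rpl21 to 2995 for Rpl41, which encodes the smallest protein of the ribosome, a ratio of 33.7. The median was 816 FPKM over the large and 1009 over the small subunit. These levels are a description of 77 genes and were not tested.

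The most abundant large subunit transcripts per length were Rpl41, Rplp1, an acidic protein of the stalk that recruits elongation factors, and Rpl32. Rpl41 had 2966, 2978 and 3042 FPKM in WT and 3098, 2984 and 3254 in KO. The labels overlapped, and KO replicate 3 was the highest of the 6. Rplp1 averaged 2323 ± 39.6 FPKM and Rpl32 2000 ± 19.1 in WT (SD, n = 3), so both differed from each other and from Rpl41 by more than that spread. In the small subunit Rps2, a protein at the messenger RNA entry channel, led with 1921 ± 23.7 FPKM in WT, followed by Rps23 with 1760 ± 25.7, a protein of the decoding centre, and Rps18 with 1707 ± 10.4.

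At the low end, Rpl21 had 88.8 ± 0.746, Rpl22 144 ± 3.25 and Rpl15 247 ± 3.01 FPKM in the large subunit (SD, n = 3, WT). In the small subunit Rps15a had 146 ± 4.03, Rps20 231 ± 5.17 and Rps12 381 ± 11.9. These levels rest on the gene length behind the deposited FPKM, which runs from 322 to 5136 bp over the core genes and is 5136 bp for Rps15a and 3641 bp for Rps20. FPKM and length ran opposite to each other across the 77 genes (Spearman rho -0.51, a description across genes that are measured in the same libraries). Rps15a in CPM was at 733 to 777 in WT, and Rps20 at 825 to 865.

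Processed pseudogenes are a known feature of this family, and the sources used here do not say how reads matching several copies were counted, so each member's count is uncertain to that extent. RefSeq names at least 1 pseudogene after 62 of the 77 core genes, 318 in all, with 24 for Rpl31, 23 for Rps12 and 15 for Rpl21. Across the 77 genes this number and the FPKM had a Spearman rho of -0.16. The 10 pseudogene rows in the count table summed to between 836 and 953 counts per library, beside 2292511 counts or more in the 89 members.

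**Figure D1:**
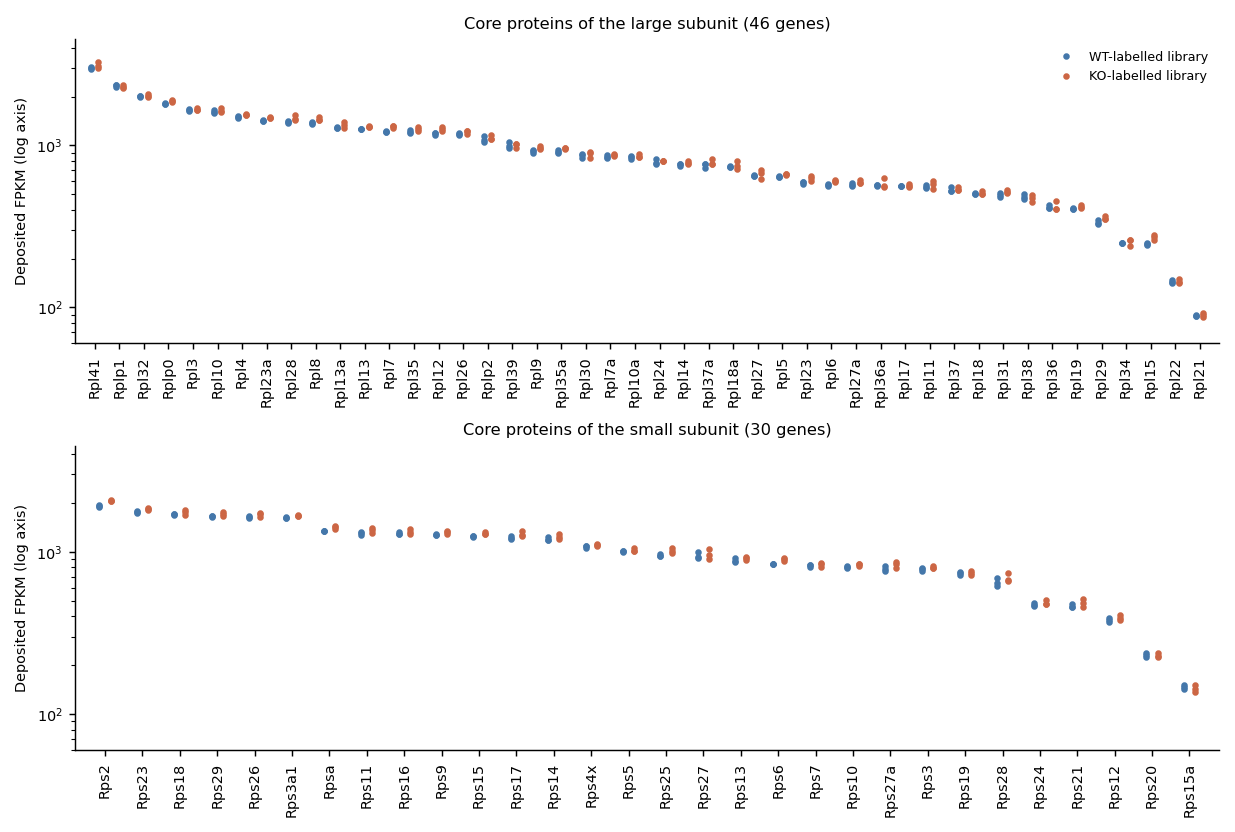
Deposited FPKM on a log axis for the 46 core large subunit genes (top) and 30 core small subunit genes (bottom), with 1 point per library, WT-labelled in blue and KO-labelled in orange. The spread between genes, from 88.8 for Rpl21 to 2995 for Rpl41 in WT, is far wider than the spread between libraries of a gene.

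Transcripts of 15 ribosomal protein genes were higher in KO-labelled cells, each by 4.20% to 8.93%, and 1 paralogue, Rpl39l, was lower. Rpl39l has few counts and passed the filter on low counts only through its WT-labelled libraries. The core genes that rose included Rps2, Rps6, Rps25 and Rpsa in the small subunit and Rpl6, Rpl7, Rpl8, Rpl9, Rpl12, Rpl15, Rpl23, Rpl23a and Rpl29 in the large subunit, and the paralogue Rpl7l1 rose with them. Of the 89 members 88 were tested, with Rpl3l under the count filter. The call used edgeR's quasi-likelihood test with Benjamini-Hochberg adjustment over all 12810 tested genes at 0.05. In all, 16 of 88 members were called (18.2%), close to the 17.3% of all tested genes. In the higher direction it was 15 of 88 (17.0%) beside 7.23% of all tested genes, and in the lower direction 1 of 88 (1.14%) beside 10.1%.

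The share called was higher among abundant genes. Among the 1107 other tested genes at or above the lowest core member in WT (185 CPM), 37.2% were called, 15.6% higher and 21.6% lower. Beside these, 14 of the 77 core members were higher (18.2%) and 0 lower. DESeq2 and limma-voom each called 15 members higher and 1 lower, as edgeR did. Of the 15 that were higher, all 15 had every KO-labelled library above every WT-labelled one. That was so for 28 of 88 tested members, beside 15.5% of all tested genes, and 1 member had the opposite order, beside 16.7%. Among the 1107 other abundant genes, 282 (25.5%) had that order and 288 the opposite one. Beside these, 26 of the 77 core members (33.8%) had that order and 0 the opposite one.

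The median log2 fold change over the 88 members was 0.035, a difference of 2.47%, beside 0.0014 over all tested genes. Of the 88 values, 79 were above 0, beside 6454 of 12810 for all tested genes. Over the 77 core members every 95% interval lay between -7.64% (Rpl38) and 12.9% (Rpl15). The 63 core members that were not called had intervals between -7.64% and 11.3%, which bounds their change without showing that they did not differ. Outside the core list values were wider, from -2.62 for Rpl39l to 0.68 for Rps23rg1, both genes of few counts.

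**Figure D2:**
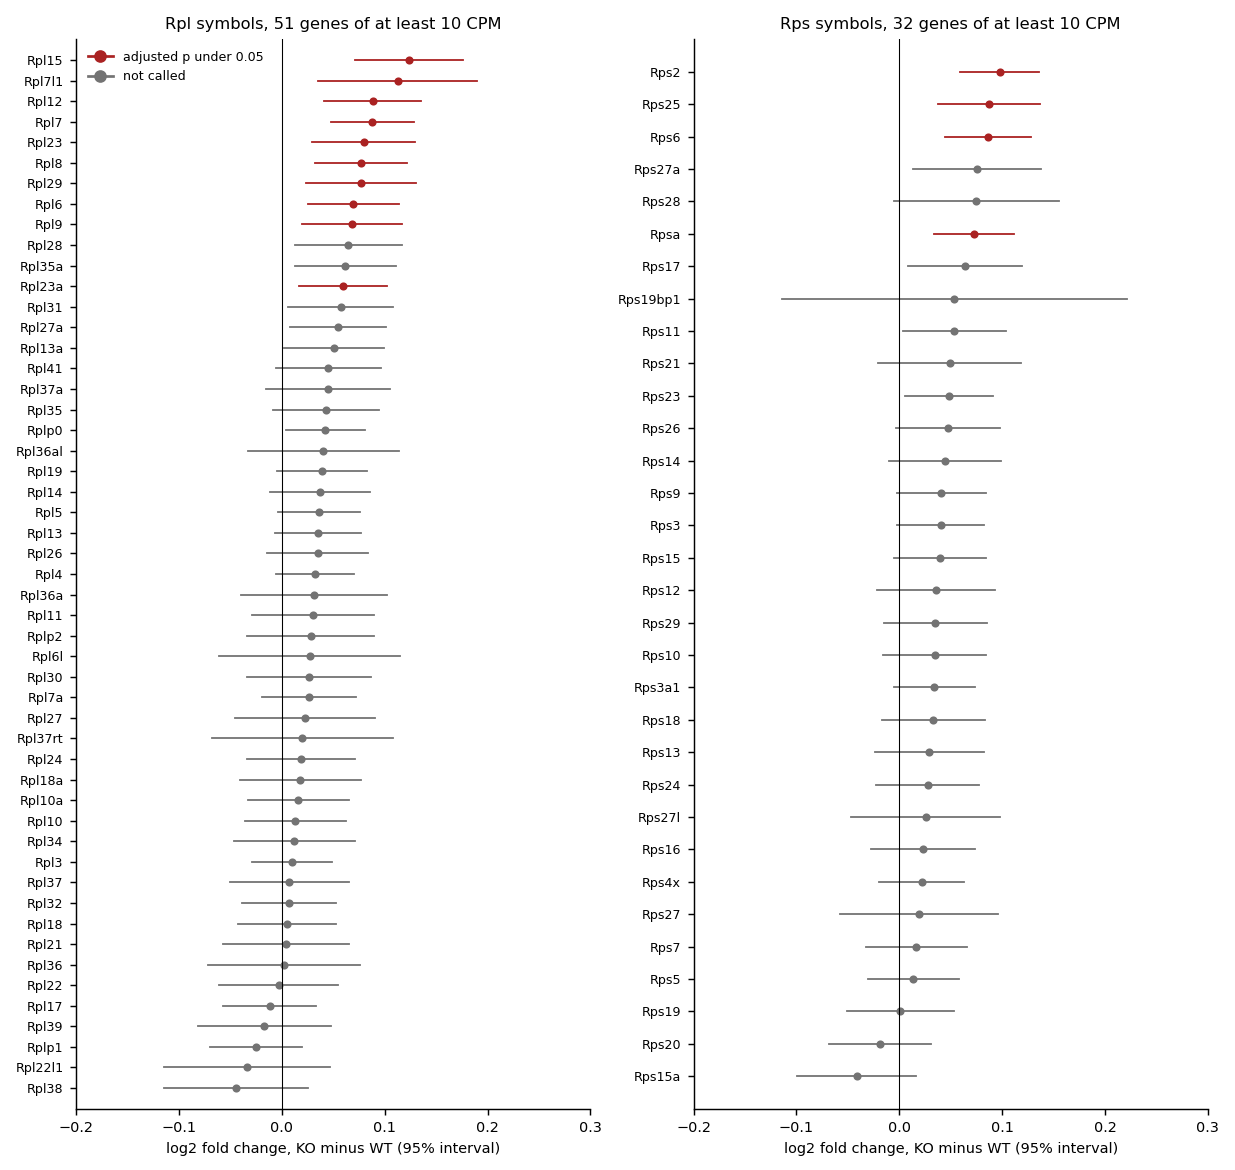
Log2 fold change of KO over WT with its 95% interval for 51 Rpl and 32 Rps genes of at least 10 CPM, called genes in red and the others in grey. Most points lie to the right of 0, and no core interval passes -7.64% or 12.9%.

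In the small subunit, the gene with the smallest p was Rps2. It stood at 1897, 1951 and 1931 CPM in WT and 2047, 2052 and 2084 in KO. All KO-labelled libraries were higher by more than the range of the WT ones, with a log2 fold change of 0.098 ± 0.019 (SE, edgeR adjusted p = 0.000534). Rps6 encodes the ribosomal protein that S6 kinases phosphorylate after mTORC1 activation. Its CPM were 1179, 1179 and 1175 in WT and 1271, 1227 and 1253 in KO, with WT values closely together and KO values apart from them (0.086 ± 0.020, adjusted p = 0.00343).

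Rpsa, a protein of the small subunit that is also known as a laminin receptor, was at 2488, 2494 and 2514 CPM in WT and 2616, 2579 and 2688 in KO. KO replicate 3 was the highest and the labels did not overlap (0.073 ± 0.019, adjusted p = 0.00784). Rps25, known for its part in initiation at internal ribosome entry sites, was at 660, 650 and 653 CPM in WT and 690, 676 and 719 in KO (0.087 ± 0.024, adjusted p = 0.0121). KO replicate 2 was the KO value nearest to WT, and the labels did not overlap.

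In the large subunit, Rpl15 had the largest rise of a core gene. Its CPM were 482, 488 and 497 in WT and 533, 516 and 549 in KO, without overlap (0.12 ± 0.025, adjusted p = 0.00101). Its start window, printed earlier, holds both pyrimidine letter strings, as does that of Rps15a, which did not pass the test. Rpl7 was at 1149, 1134 and 1138 CPM in WT and 1215, 1202 and 1218 in KO (0.088 ± 0.019, adjusted p = 0.00225), with both labels in narrow ranges. Rpl12, a protein at the base of the stalk, was at 763, 739.5 and 762 CPM in WT and 804, 785 and 819 in KO (0.088 ± 0.023, adjusted p = 0.00788).

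The other large subunit genes that rose had log2 fold changes of 0.077 for Rpl8 and Rpl29, 0.080 for Rpl23, 0.069 for Rpl6, 0.068 for Rpl9 and 0.059 for Rpl23a. Rpl8 lies near the peptidyl transferase centre, and Rpl23a sits at the exit of the peptide tunnel. Their adjusted p ran from 0.0146 for Rpl8 to 0.0498 for Rpl23a. Rpl9 and Rpl23a were the core genes just inside the threshold (adjusted p = 0.0484 and 0.0498), and Rpl35a and Rpl28 were the ones just outside it (adjusted p = 0.0778 and 0.0849). In Rpl35a and Rpl28 the log2 values were 0.062 and 0.065, as large as that of Rpl23a.

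**Figure D3:**
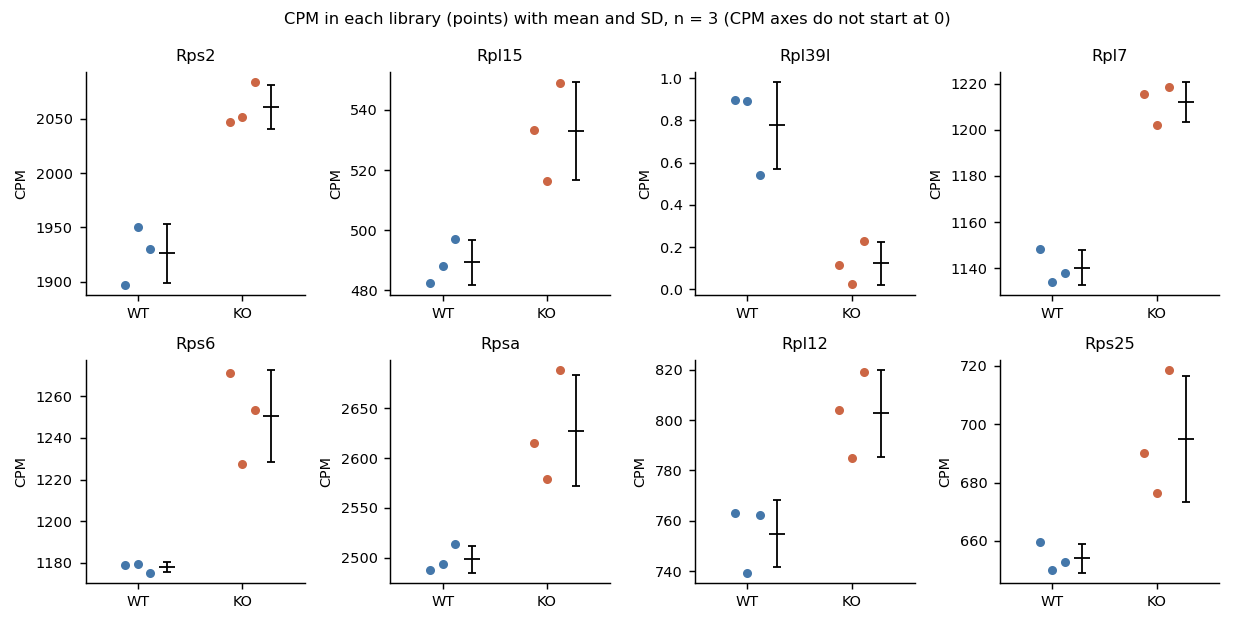
CPM in each library (points) with mean and SD for 8 members with small p, WT-labelled in blue and KO-labelled in orange, on axes that do not start at 0. In each panel the labels do not overlap, and Rpl39l is the only one of the 8 that is lower in KO-labelled libraries.

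Members of the p53-linked Rpl5 and Rpl11 pair and of the stalk did not pass the test. Rpl5 and Rpl11, which bind the ubiquitin ligase MDM2 and stabilise p53 when ribosome assembly fails, were at 0.036 ± 0.019 and 0.030 ± 0.029 (SE, adjusted p = 0.226 and 0.535). Rpl5 was at 1307, 1288 and 1298 CPM in WT and 1333, 1325 and 1334 in KO, without overlap. Rpl11 was at 878, 865 and 908 and at 906, 854 and 947, with KO replicate 2 below every WT value. Of the stalk proteins, Rplp0 was at 0.042 ± 0.018, Rplp1 at -0.025 ± 0.021 and Rplp2 at 0.028 ± 0.030 (adjusted p = 0.130, 0.487 and 0.589), so 2 had positive values and 1 a negative one.

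Some ribosomal proteins are made as fusions with ubiquitin or a ubiquitin-like protein. Rps27a was at 642, 623 and 671 CPM in WT and 644, 693 and 703 in KO, where KO replicate 1 lay within the WT range (0.075 ± 0.030, adjusted p = 0.0920). Fau, which encodes another such fusion and carries a symbol outside the rule, was at -0.0032 ± 0.026 (adjusted p = 0.957). Rack1, a scaffold protein of the small subunit named here after its value was seen, was at 0.012 ± 0.021 (adjusted p = 0.752).

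Among members of at least 10 CPM that were not called, the highest values were those of Rps27a and Rps28, and the lowest those of Rpl38, Rps15a and Rpl22l1. Rps28 was at 0.075 ± 0.038, Rpl38 at -0.045 ± 0.034, Rps15a at -0.042 ± 0.028 and Rpl22l1 at -0.034 ± 0.039 (adjusted p = 0.207, 0.424, 0.360 and 0.618). Rpl38 is known for a part in the translation of Hox messenger RNAs. Its CPM were 305, 297 and 320 in WT and 297, 282 and 314 in KO, and Rps15a was at 754, 733 and 777 and at 727, 704 and 769. In both genes the labels overlapped and KO replicate 3 was the highest KO value. Without KO replicate 3 both were called lower, Rpl38 at -0.083 (adjusted p = 0.0323) and Rps15a at -0.077 (adjusted p = 0.0107).

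Paralogues of core proteins are a way in which ribosome composition can vary between tissues. Rpl39l, a copy of Rpl39 known from the male germline, was counted 32, 31 and 19 times in the WT-labelled libraries and 4, 1 and 8 times in the KO-labelled ones. Every KO value was below every WT value, with a log2 fold change of -2.62 ± 0.553 (SE, edgeR adjusted p = 0.00139). The row passed the filter on low counts only through its WT-labelled libraries, so the call is given as a description. The size rests on few counts and was -3.40 without KO replicate 3 and -2.15 without KO replicate 2. At 0.901 ± 0.239 FPKM in WT it was 0.0905% of the level of Rpl39, which itself was at -0.017 ± 0.031 (adjusted p = 0.774). Rpl7l1, a relative of Rpl7, was at 113, 118 and 109 CPM in WT and 121, 119 and 127 in KO (0.11 ± 0.037, adjusted p = 0.0389), or 3.56% of the FPKM of Rpl7 in WT. That share rests on gene lengths of 2606 bp for Rpl7l1 and 934 bp for Rpl7, which averaged 1140 CPM in WT.

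Rpl22 and Rpl22l1 are of interest in this lineage, since loss of Rpl22 in mice is known to arrest αβ T cells and to spare γδ T cells. Per length, Rpl22l1 was above Rpl22, at 262% ± 12.4 of its FPKM in WT and 257% ± 18.4 with the KO label (SD, n = 3 each). This order rests on the gene lengths behind the FPKM, 486 bp for Rpl22l1 and 2208 bp for Rpl22. In CPM Rpl22l1 was below Rpl22 in every library. Rpl22 itself was at 310, 319 and 327 CPM in WT and 316, 310 and 328 in KO (-0.0031 ± 0.028, adjusted p = 0.962), with a 95% interval from -4.12% to 3.85%. The labels overlapped in both genes of the pair, with Rpl22l1 at 182, 174 and 196 and at 186, 183 and 170 CPM.

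Rpl36al reached 62.1% ± 2.13 of the FPKM of Rpl36a in WT and 62.6% ± 2.08 in KO. Rps27l, a p53-inducible relative of Rps27, reached 4.71% ± 0.0620 and 4.74% ± 0.192. These shares rest on gene lengths of 2748 bp for Rps27l and 346 bp for Rps27. In counts, Rps27l had 4308, 4211 and 4481 in WT beside 11486, 11126 and 12151 for Rps27. The retrogene Rps27rt had 2.32% ± 0.263 and 2.71% ± 0.676, where KO replicate 2 with 423 counts stood above the 250 to 327 of all other libraries. Rpl3l, a heart and muscle form of Rpl3, was found with 4, 1 and 0 counts in WT and 0 in each KO-labelled library, too few for a fold change. None of Rpl36al, Rps27l and Rps27rt passed the test (adjusted p = 0.503, 0.692 and 0.257). Of the remaining members outside the core list, Rpl37rt (2307 to 2511 counts over the 6 libraries), Rpl6l (2117 to 2295) and Rps19bp1 (521 to 625) were not called either. Rpl32l (10 to 22) and Rps23rg1 (9 to 23), both of few counts, were also not called. In Rpl32l every KO-labelled CPM was above every WT-labelled one, and in the others the labels overlapped.

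Libraries of one label differed from each other in the level of the whole family. Set against the WT mean of each gene, the median over the 77 core genes was -0.0062, -0.013 and 0.020 on the log2 scale in WT and 0.028, 0.0043 and 0.076 in KO. KO replicate 2 thus lay below WT replicate 3, and KO replicate 3 stood highest, with 77 of 77 genes above their WT mean. Among the KO-labelled libraries, replicate 3 held the highest CPM in 73 of 77 core genes and replicate 2 the lowest in 56. Between these 2 libraries of one label the median difference was 0.071, larger than the median log2 fold change of 0.035 between the labels. The median over all tested genes lay between -0.00022 and 0.0028 in every library.

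The count of calls changed with the libraries used. Without KO replicate 3 the median over the tested members was 0.018, with 61 of 88 values above 0, and 12 were called higher, all of them among the 15, and 3 lower. Without KO replicate 2 the median was 0.053, and 21 were called higher, 14 of them among the 15. Without WT replicate 1 there were 9 higher and without WT replicate 2 there were 7. The share of all tested genes called higher also changed between these fits. It was 7.69% without KO replicate 3, 7.10% without KO replicate 2, 5.11% without WT replicate 1 and 5.43% without WT replicate 2. Rpl39l was called lower with each library left out and in the 10 other settings that tested it. Since it passed the filter on low counts only through its WT-labelled libraries, this is a description and no support. Rps2, Rps6, Rpsa, Rpl7 and Rpl15 kept their call with each library left out and under every other setting that tested them. Rpl12 and Rps25 lost it only without WT replicate 2 (adjusted p = 0.0567 and 0.0526), and Rpl8 without WT replicate 1 (adjusted p = 0.0964). Rpl6, Rpl9, Rpl23, Rpl29, Rpl7l1 and Rpl23a each lost it without at least 3 of the 6 libraries. Of 12 other settings, Rpl23a kept the call in 8, Rpl7l1 in 9, Rpl9 and Rpl29 in 10 each, and Rpl6 and Rpl23 in all 12.

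**Figure D4:**
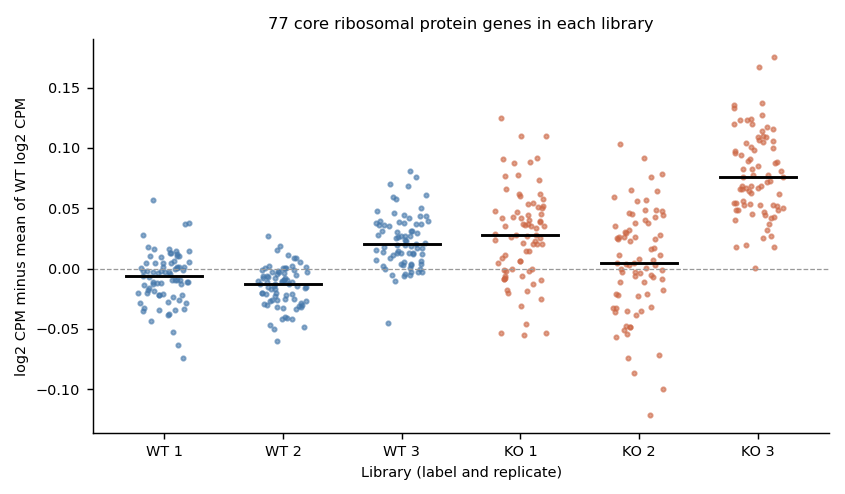
Log2 CPM of each of the 77 core genes minus the mean of its WT log2 CPM, in each library, with the median as a black line. The medians run from -0.013 in WT replicate 2 to 0.076 in KO replicate 3, and that of KO replicate 2 (0.0043) lies below that of WT replicate 3 (0.020).

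Calls were made in both subunits. In the core list, 9 of 46 large subunit genes were higher and 0 lower (19.6%), and 5 of 31 small subunit genes were higher and 0 lower (16.1%). Both shares lie above the 7.23% of all tested genes called higher and close to the 15.6% of the other abundant genes. The median log2 fold change was 0.034 for the large subunit, with quartiles of 0.012 and 0.057, and 0.039 for the small, with quartiles of 0.025 and 0.059. Whether the subunits differ was not tested, since genes are not replicates.

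The log2 ratio of summed large to summed small subunit CPM was 0.478, 0.478 and 0.472 in WT and 0.465, 0.468 and 0.467 in KO. The KO-labelled libraries all lay below the WT-labelled ones, by a mean of 0.0091 (0.476 ± 0.0032 and 0.467 ± 0.0013, SD, n = 3 each). The direction was not the same in a summary by medians, which took only the members of at least 10 CPM. There the difference between the subunits' median log2 CPM was -0.222 ± 0.026 in WT and -0.186 ± 0.022 in KO, higher in KO by 0.036. By summed FPKM the ratio was lower in KO by 0.013.

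**Figure D5:**
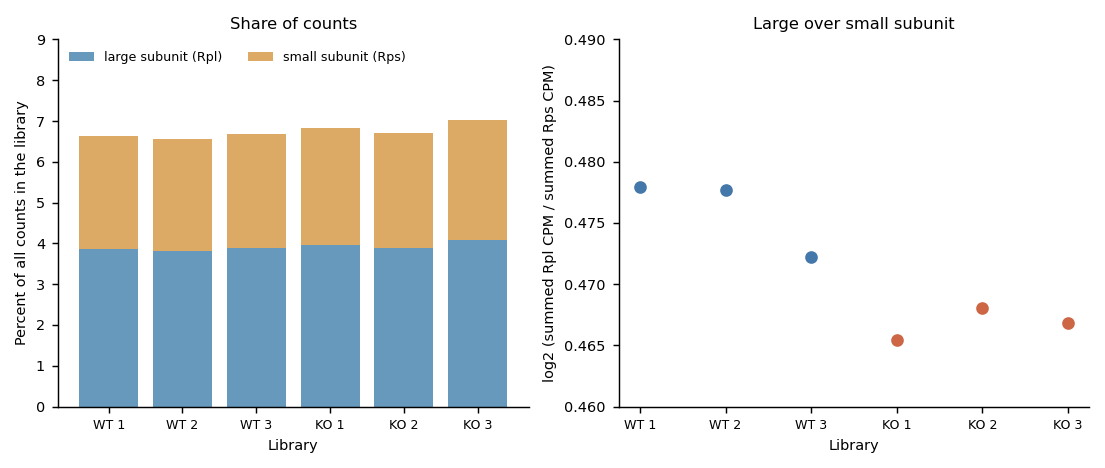
Left, percent of all counts of each library in Rpl (blue) and Rps (tan) genes, on an axis from 0; right, the log2 ratio of summed Rpl to summed Rps CPM, on an axis that does not start at 0. The summed share runs from 6.57% to 7.03%, and the ratio from 0.465 to 0.478 with the KO-labelled libraries lowest.

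Start sequences of the called genes were compared with the others as a description. Of the 15 members that rose, 10 had a start entry, and 3 of these 10 held CTTTC on the given strand from 20 bases before to 30 bases after the start, beside 31.0% of the 58 entries of core genes that were not called higher. For CTTCC it was 1 of 10 beside 32.8%, and for CGGAAG on either strand 8 of 10 beside 58.6%. The E-box genes had log2 fold changes of 0.080 (Rpl23), 0.051 (Rpl13a), 0.037 (Rpl14), 0.039 (Rpl19), 0.012 (Rpl34) and 0.0010 (Rps19). Rpl23 was called and the other 5 were not.

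Other parts of the translation machinery were read in the same fit. The counts of these lists are to be read beside the 7.23% of all tested genes called higher and the 10.1% called lower, or the 15.6% and 21.6% among abundant genes. Factors of ribosome assembly had 9 of 84 tested genes higher (10.7%) and 3 lower (3.57%), with a median log2 fold change of 0.052 and Rps19bp1 included. Mdn1, the giant ATPase that strips assembly factors from the large subunit, rose by 0.17 and Riok1, a kinase of small subunit maturation, fell by 0.18 (edgeR adjusted p = 0.000542 and 0.00165). RNA polymerase I and nucleolar genes had 3 of 20 higher (15%) and 1 lower (5.0%), with a median of 0.015, and the 4 called in all are a share near the 17.3% of all tested genes. Tcof1 and Ubtf, which both act in ribosomal RNA transcription, rose by 0.21 and 0.13 (adjusted p = 1.98e-05 and 0.000847).

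Translation initiation factors were higher in 7 of 36 genes (19.4%, beside 7.23% of all tested genes and 15.6% of abundant ones) and lower in 0 (median 0.052), with Eif5a at 0.089 and Eif2b4, a subunit of the exchange factor for eIF2, at 0.19 (adjusted p = 0.00182 and 0.00848). Elongation and termination factors were higher in 3 of 12 (25%) and lower in 0 (median 0.059), led by Eef1g at 0.11 and the release factor gene Gspt1 at 0.13 (adjusted p = 0.000318 and 0.00223). Other genes known for TOP messenger RNAs, some of which stand in these lists too, were higher in 6 of 22 (27.3%) and lower in 0 (median 0.038), with Ybx1 at 0.12 (adjusted p = 0.000269) beside Eef1g. Mitochondrial ribosomal proteins had 4 of 78 higher (5.13%) and 2 lower (2.56%), both under the shares of all tested genes (median 0.047), with Mrpl10 at 0.21 and Mrpl4 at 0.16 (adjusted p = 0.000879 and 0.0104).

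Genes that regulate mTORC1 or TOP messenger RNAs were higher in 1 of 25 (4.0%) and lower in 6 (24.0%, beside 10.1% of all tested genes and 21.6% of abundant ones), with a median of -0.059. The stress-induced inhibitor genes Ddit4 and Sesn3 fell by 0.65 and 0.31 on the log2 scale (adjusted p = 4.33e-12 and 1.71e-05). Larp1, named after its value was seen, went from 593 ± 9.79 to 560 ± 5.30 CPM (SD, n = 3 each; -0.083 ± 0.023 SE, adjusted p = 0.0122). Myc, also named after its value was seen, was at 222, 228 and 225 CPM in WT and 148, 147 and 146 in KO, without overlap (-0.62 ± 0.028, edgeR adjusted p = 1.93e-13). Any link between Myc and the ribosomal protein transcripts was not tested.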

How the data were processed

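Per the labels' protocols, total RNA came from TRIzol lysates of the sorted cells, and libraries from a VAHTS Universal V6 kit. The submitters' processing notes name fastp, HISAT2, HTSeq and the build GRCm39, while their versions, settings, strand use and annotation were not stated in those sources. Overlapping genes on opposite strands are therefore uncertain. The deposited counts are whole numbers per gene symbol. The deposited FPKM equal these counts over the column total and 1 length per gene (tolerance 0.01 bp), and served for levels between genes.

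The test was edgeR's (4.0.16, R 4.3.3; TMM factors 0.994 to 1.01, filterByExpr, glmQLFit and glmQLFTest on the label), adjusted over 12810 genes. The filter left out 0.0366% of counts. CPM use the TMM-scaled library size, and each SE follows from the log2 fold change and its F statistic. The script was tested on simulated data with changes in genes drawn from all those tested. It recovered 18.0% of 1.1-fold and 50.9% of 1.2-fold changes, and 5 of 115 calls were false. The named members are those called (the 15 of smallest p, and then the last), the 3 highest and 3 lowest values not called at 10 CPM or more, the 3 highest and lowest FPKM per subunit, members with roles of their own, and paralogue pairs. From other lists the 2 genes of smallest p are named, and other genes are said to be chosen after their values were seen. Members and lists were chosen with earlier results of these data known. Alternatives used DESeq2 1.42.0, limma 3.58.1, other scalings and filters, a length offset, the replicate number as a block, and each library left out. Start sequences are from RefSeq (GRCm38.p6) by symbol, without the entries of a single chromosome. Some genes enter the counts and fits but are not reported here by name.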

Additional observations from a re-analysis of the deposited data

How the results depend on the processing

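The count of ribosomal protein genes called changed, 16 in the report, ranged from 12 to 20 under other scalings, tests, filters, a gene length offset, restricted members and a threshold of 0.1. It was 8 at an adjusted p under 0.01, where 1383 of all tested genes were called instead of 2219. With libraries left out in turn it ranged from 8 (without WT replicate 2) and 10 (without WT replicate 1) to 22. Keeping pseudogene rows named -ps and a number, added after the data were seen, left it at 16. The median log2 fold change of the members ranged from 0.018 to 0.053 with libraries left out, and from 0.034 to 0.046 otherwise. Upper-quartile scaling and total counts moved the median of all genes to 0.012 and 0.011. The large to small subunit difference was -0.013 by summed FPKM and 0.036 by median log2 CPM of members of at least 10 CPM, against -0.0091. The cause was not tested. The replicate numbers did not pair the libraries (correlations of same-numbered deviations 0.055, -0.022 and -0.039); with the number as a replicate block 14 members were called (13 higher), and 12 with a length offset added. Of 42 named members tested, none of the 16 called changed sign in any setting, and 11 of the 26 not called did. With 3 libraries a label, core standard errors of 0.018 to 0.038 on the log2 scale limit the differences that can be called.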
